A study of Mus musculus with 20 samples.

Results

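Regions of the mouse genome that carried a 5-formylcytosine (5fC) peak in several tissues of wild-type (WT) embryos at once were collected from pull-down peak lists. An autosomal stretch was kept where at least 6 of 10 WT libraries had a peak over the same bins of 100 bp. At least 1 of those libraries had to be hindbrain and at least 1 had to come from another tissue, and the stretch had to be 200 bp or longer. This gave 909 recurrent regions. Each is a part, under at least 6 WT libraries, of 1 of 84100 autosomal stretches of 200 bp or longer. Those stretches lie under a peak of at least 1 WT library and are called WT stretches below. Values for WT stretches are for the whole stretch. The regions were chosen by the WT peak positions, so their WT peaks are given as a description, and the *Tdg* null libraries are the readout that the choice did not use.

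The embryos were collected at E11.5 and came from intercrosses of *Tdg* heterozygotes. The *Tdg* null allele carries a neomycin resistance cassette and cannot encode the catalytic domain. For hindbrain there were 4 litters, labelled A, O, Q and Z, and each gave 1 WT and 1 *Tdg* null embryo. Heart, liver and carcass came from 2 pairs of embryos, labelled a and b, each with 1 WT and 1 *Tdg* null embryo, so the 3 tissues of an embryo are not independent and the 20 libraries came from 12 embryos. The strain is not given in the sources used here. The *Tdg* null liver of pair b had 206 autosomal peaks and was set aside here. The study left out 1 *Tdg* null liver for its quality without saying which, and this library was taken to be that one from its number of peaks. Values for *Tdg* null embryos therefore use 9 libraries unless stated. The deposited peaks cannot show the deletion, and *Tdg* itself (ENSMUSG00000034674.11, chr10:82092573-82113544 in NCBIM37, also called mm9) had 0 to 4 peaks in *Tdg* null and 0 or 1 in WT libraries.

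5fC arises when TET enzymes oxidise 5-methylcytosine by way of 5-hydroxymethylcytosine. TDG is the glycosylase that removes 5fC from DNA so that base excision repair can restore an unmodified cytosine. In mammals most of these modified bases lie at CpG dinucleotides. A pull-down captures the DNA fragments that react with an aldehyde-specific biotin probe, and a peak caller marks where such fragments pile up. Fragments from sequences that exist in many copies can only be placed among near-identical positions, so peaks over them are less certain.

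The sequences at the centre of 9 regions are given because the regions fell into visibly different kinds of sequence. Each is a window of 200 bases on the plus strand of NCBIM37, 5′ to 3′, with CpGs in capitals. The first 3 lie in regions under a peak of all 10 WT libraries and repeat a short unit head to tail. None of these 3 windows holds a CpG.
Near *Mogat1*, chr1:78570651-78570850: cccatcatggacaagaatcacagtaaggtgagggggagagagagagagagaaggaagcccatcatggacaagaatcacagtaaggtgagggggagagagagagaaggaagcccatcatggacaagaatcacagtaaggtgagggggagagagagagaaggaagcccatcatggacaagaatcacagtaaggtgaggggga
*Dlgap2* intron, chr8:14306951-14307150: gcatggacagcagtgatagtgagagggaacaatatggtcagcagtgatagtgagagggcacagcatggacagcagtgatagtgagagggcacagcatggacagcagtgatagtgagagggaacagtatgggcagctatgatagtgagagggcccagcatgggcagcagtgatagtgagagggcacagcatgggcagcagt
Near *Gm12020*, chr11:18231901-18232100: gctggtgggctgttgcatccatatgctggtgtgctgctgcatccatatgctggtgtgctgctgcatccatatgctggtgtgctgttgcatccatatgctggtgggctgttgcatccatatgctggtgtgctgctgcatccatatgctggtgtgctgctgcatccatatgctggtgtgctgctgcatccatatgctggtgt

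A further pair of arrays came from regions without a peak in any *Tdg* null library. The first lies in an intron of *Intu*, which encodes a planar cell polarity effector needed for cilia, and all 10 WT libraries had a peak there.
*Intu* intron, chr3:40449201-40449400: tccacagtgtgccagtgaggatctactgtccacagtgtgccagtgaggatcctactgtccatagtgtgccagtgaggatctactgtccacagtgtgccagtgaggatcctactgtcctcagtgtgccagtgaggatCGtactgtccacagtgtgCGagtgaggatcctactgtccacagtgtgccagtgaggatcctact
Near *Gm13064*, chr4:149184501-149184700: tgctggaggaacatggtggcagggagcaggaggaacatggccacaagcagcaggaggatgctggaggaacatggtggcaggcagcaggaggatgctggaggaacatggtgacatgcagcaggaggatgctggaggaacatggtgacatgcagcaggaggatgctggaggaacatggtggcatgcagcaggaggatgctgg

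The next window also comes from a region under all 10 WT libraries, but it repeats no unit. It lies 52533 bp from the start of *Mirlet7c-2*, a gene of the let-7 microRNA family. The window after it sits in a region that begins 301 bp from a gap of the assembly. The nearest transcription start to that region, of *Samd9l*, lies 333905 bp away.
Near *Mirlet7c-2*, chr15:85483951-85484150: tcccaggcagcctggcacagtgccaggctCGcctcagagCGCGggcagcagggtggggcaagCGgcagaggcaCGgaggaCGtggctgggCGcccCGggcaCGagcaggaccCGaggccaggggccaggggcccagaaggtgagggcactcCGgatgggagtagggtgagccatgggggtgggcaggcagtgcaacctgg
Near *Samd9l*, chr6:3000601-3000800: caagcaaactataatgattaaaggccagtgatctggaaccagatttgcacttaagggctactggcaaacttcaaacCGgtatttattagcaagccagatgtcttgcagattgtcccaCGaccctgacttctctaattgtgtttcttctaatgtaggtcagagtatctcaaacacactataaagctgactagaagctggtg

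The last pair of windows comes from long regions that had a peak in all 9 *Tdg* null libraries. Their sequence occurs once in the genome and they hold 7 and 3 CpGs.
Near *SNORA32*, chr3:128223301-128223500: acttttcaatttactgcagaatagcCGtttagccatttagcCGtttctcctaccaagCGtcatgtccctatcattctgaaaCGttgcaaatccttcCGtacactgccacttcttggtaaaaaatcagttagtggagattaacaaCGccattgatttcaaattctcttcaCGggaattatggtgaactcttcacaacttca
Near *2610039C10Rik*, chr16:90710451-90710650: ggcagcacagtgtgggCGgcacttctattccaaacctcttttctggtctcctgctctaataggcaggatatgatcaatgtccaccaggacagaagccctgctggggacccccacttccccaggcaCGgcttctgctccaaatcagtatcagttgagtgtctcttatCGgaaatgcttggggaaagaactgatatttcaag

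The 909 regions covered 512.5 kb, or 0.0214% of the autosomal bases that are not gaps. Their length was between 200 and 34200 bp with a median of 500 bp, the median of all WT stretches as well, and 31 regions were longer than 1 kb. The longest, chr8:19916901-19951100, made up 6.67% of all bases in the regions. At their highest point 517 regions reached 6 WT libraries, 253 reached 7, 61 reached 8, 36 reached 9 and 42 reached all 10. The number of bins fell from 5832 under exactly 5 WT libraries to 3321 under exactly 6, so the threshold cut through a continuous decline. The regions were spread over all 19 autosomes, with 24.5 regions per 100 Mb on chromosome 19 and 51.1 on chromosome 5, and 30 lay within 10 kb of another.

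The libraries that chose the regions were of very unequal size. WT hindbrain of litters A, O, Q and Z had 1515, 8902, 21063 and 1507 autosomal peaks, in that order. WT heart had 5881 and 5418, WT liver 16368 and 1740 and WT carcass 41464 and 34657 in pairs a and b. *Tdg* null libraries had between 100553 and 251271, apart from the liver set aside. The library with most hindbrain peaks, litter Q, lay over 97.6% of the regions, while litters A and Z lay over 45.2% and 52.4%. In the small WT libraries the regions took up a sizeable part of all peaks: 27.1% and 31.5% of the peaks of litters A and Z and 20.3% of those of the WT liver of pair b overlapped one. In *Tdg* null libraries this part was between 0.185% and 0.668%. Sequencing depth is unknown from peak positions, and read counts were not analysed here, so a missing peak can mean less 5fC or fewer reads.

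Most recurrent regions carried 5fC peaks in *Tdg* null embryos too. Of the 909 regions, 857 (94.3%, exact 95% interval 92.6 to 95.7%) were under a peak of at least 1 of the 9 *Tdg* null libraries, against 84% of all WT stretches. A peak in all 9 was seen over 167 regions (18.4%, interval 15.9 to 21.0%), against 8.51%. A further 126 regions (13.9%, interval 11.7 to 16.3%) were under a peak of all 4 *Tdg* null hindbrains and of no other *Tdg* null library, against 0.83% of all WT stretches. Of the 126 regions, 84 had peaks in exactly the 4 WT hindbrains and 2 WT hearts. The share changed with the WT libraries used. It was 5.55%, 7.31% and 5.83% when regions were chosen without WT hindbrain of litter A, O or Z, 6.25% and 6.73% without WT heart of pair a or b, and 23.9% and 23.5% without WT carcass of pair a or b. The share under all 9 was 28.3% when *Tdg* null heart of pair b was left out of the 9. No peak of *Tdg* null heart, carcass or liver lay over 407 regions (44.8%, interval 41.5 to 48.1%), against 20.2%. At least 1 *Tdg* null hindbrain had a peak over 848 regions (93.3%, against 62.3%), and 9 regions (0.990%, against 21.7%) had a *Tdg* null peak elsewhere but none in hindbrain. The rule asked for a WT hindbrain peak in every region, and hindbrain had 4 *Tdg* null libraries, heart and carcass 2 each and liver 1. The intervals cover counting error only, since the regions share libraries and are not independent.

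**Figure D1:**
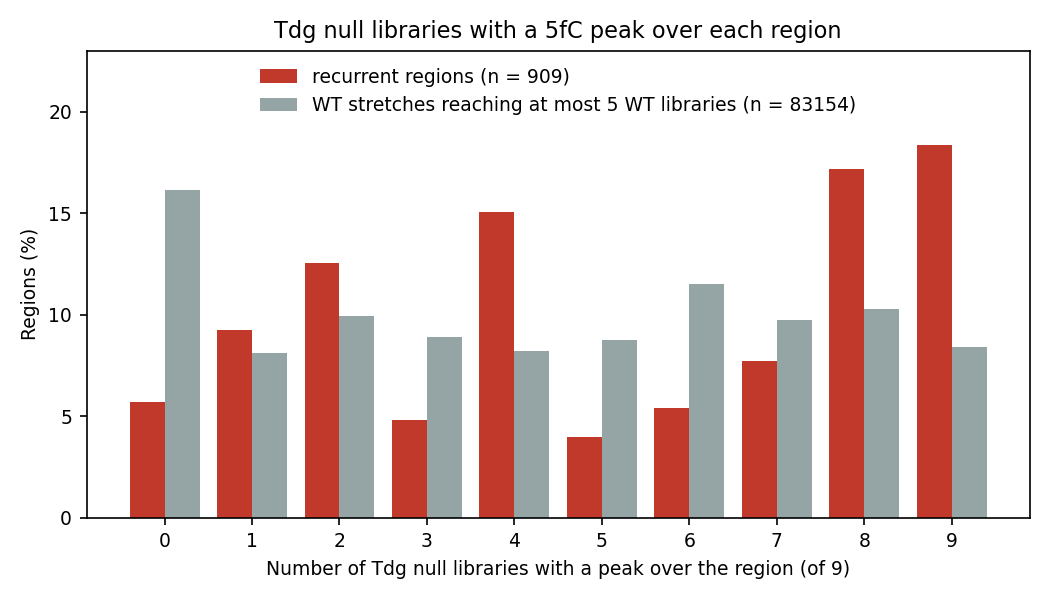
Bars give the percentage of regions (vertical axis) by the number of *Tdg* null libraries, of 9, with a peak over them (horizontal axis), for the 909 recurrent regions and for the WT stretches reaching at most 5 WT libraries. The recurrent regions gather at 2, at 4 and at 8 or 9 libraries, while the other stretches are spread more evenly and 16.1% of them have no *Tdg* null peak.

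The regions were also measured by bases. *Tdg* null hindbrain peaks of litters A, O, Q and Z lay over 67.3%, 66.2%, 72.8% and 88.3% of the bases in the regions (mean 73.6% ± 10.2, SD, n = 4). The same libraries lay over 45.9%, 43.4%, 51.2% and 53.3% of the bases in all WT stretches, so each covered more of the recurrent regions than of the stretches. *Tdg* null carcass covered 34.6% and 41.4% of the bases in the regions, below the 56.5% and 69.6% it covered of all WT stretches. *Tdg* null heart covered 43.6% and 26.5% of the regions and 56.9% and 30.8% of all WT stretches. The *Tdg* null liver of pair a covered 35.7% of both. These values of carcass, heart and liver changed in both directions with the WT libraries used. With regions chosen without WT heart of pair a they were highest, at 53.4% in carcass, 47.3% in heart and 48.6% in liver. They were lowest without a WT carcass library. With regions chosen without WT carcass of pair a or b, mean cover of the regions was 21.5% and 22.04% in *Tdg* null carcass, 22.02% and 22.5% in *Tdg* null heart and 22.2% and 22.9% in *Tdg* null liver. Peaks over the regions were longer in *Tdg* null embryos, with medians of 800 to 1300 bp per library, than in WT embryos, with 500 to 700 bp. Over the whole genome *Tdg* null peaks were longer too, with medians of 600 or 700 bp in the 9 libraries against 400 or 500 bp.

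The comparison was repeated within each tissue. Of the 415 regions under both WT heart libraries, 300 (72.3%, exact 95% interval 67.7 to 76.5%) were under neither *Tdg* null heart library, against 45% of all WT stretches under both WT hearts and 21.9% of those reaching at most 5 WT libraries. Of 738 regions under both WT carcasses, 304 (41.2%, interval 37.6 to 44.8%) were under neither *Tdg* null carcass, against 18.1% and 17.2%. Of 330 regions under both WT livers, 260 (78.8%, interval 74.0 to 83.1%) were not under the *Tdg* null liver of pair a, against 59.4% and 50.6%. In hindbrain the share was lower. Of 311 regions under all 4 WT hindbrains, 12 (3.86%, interval 2.01 to 6.64%) were under no *Tdg* null hindbrain. The share was 5.78% of the 415 WT stretches under all 4 WT hindbrains, most of which hold a region. It was 13.5% of the 104 that reached at most 5 WT libraries. All 4 *Tdg* null hindbrains had a peak over 238 (76.5%) of the 311 regions, over 67.7% of the 415 stretches and over 38.5% of the 104.

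WT embryos of pairs a and b differed from their *Tdg* null partners in a further measure. Peaks on chromosome Y numbered 22 to 48 in each WT heart, liver and carcass library and 0 to 10 in each *Tdg* null library of those tissues. Among hindbrains, chromosome Y had 63 peaks in the WT embryo of litter Q and 1 in each other WT embryo. It had 20 and 46 in the *Tdg* null embryos of litters O and Z and 1 in those of A and Q. The labels give no sex of the embryos, so in heart, liver and carcass a difference in sex cannot be told apart from genotype. A word of 50 bases that also occurs on chromosome X was found in 278 recurrent regions (30.6%, against 10.9% of all WT stretches), and one that occurs on chromosome Y in 179 (19.7%, against 7.86%). Without the regions that share such a word, 630 were left. Of these, 147 (23.3%) were under no *Tdg* null peak of heart, carcass or liver, against 14.1% of the WT stretches without such a word. The same restriction, chosen after the values were seen, left 112 of 219 regions (51.1%, interval 44.3 to 57.9%) without a *Tdg* null heart peak. The WT stretches restricted likewise gave 21.2%, and those of them reaching at most 5 WT libraries 6.45%. For carcass the restriction left 103 of 535 (19.3%, interval 16.0 to 22.9%), against 12.97% and 12.8%. For liver it left 79 of 148 (53.4%, interval 45.0 to 61.6%), against 46.5% and 45.6%, which both lie within the interval. For hindbrain it left 8 of 219 (3.65%), against 4.41% and 8.06%. All 4 *Tdg* null hindbrains lay over 77.6% of these regions, against 72.1% and 51.6%. The shares of bases changed their order in heart, and those of liver, equal before, came apart. Over regions and stretches without such a word, *Tdg* null heart covered 67.3% and 41.5% of the bases in the regions and 60.6% and 32.8% of those in the stretches, and *Tdg* null liver of pair a 55.7% and 38.3%. *Tdg* null carcass still covered less of the regions, with 54.1% and 64.2% against 60.9% and 74.9%. The regions under all 9 *Tdg* null libraries held no such word in any of 167 cases, and neither did 6932 of the 7153 WT stretches under all 9. The 167 regions made up 26.5% of the 630, against 9.25% of the WT stretches without such a word.

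The regions showed 121 combinations of WT libraries, and 4 of these are described, picked after their values were known. The most frequent, with 109 regions, was a peak in all 4 WT hindbrains and both WT hearts and in no WT liver or carcass. Of these, 84 were under all 4 *Tdg* null hindbrains and no other *Tdg* null library. *Tdg* null hindbrains lay over 86.2% to 94.5% of the 109 regions, whereas *Tdg* null hearts lay over 4.59% and 1.83%. Of all WT stretches, *Tdg* null hindbrains lay over 44.0% to 52.4%, hearts over 55.3% and 30.1%, carcasses over 51.9% and 64.5% and the liver of pair a over 32.9%, which holds as background for each combination. At least 50% of the bases belonged to tandem arrays in 37 of them, and 44 shared a word with chromosome X.

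The second combination, with 107 regions, was a peak in WT hindbrain of litter Q and in all 6 WT libraries of heart, liver and carcass, but in none of the other 3 WT hindbrains. *Tdg* null hindbrains lay over 2 of these regions in litter A, 69 in litter O, 5 in litter Q and 95 in litter Z. The other 5 *Tdg* null libraries lay over 2 to 6 each. The *Tdg* null hindbrains of litters O and Z had 20 and 46 peaks on chromosome Y, and those of A and Q had 1 each. Which WT libraries lay over these regions was fixed by the choice of the combination. A word shared with chromosome X was found in 96 of the 107 regions and one shared with chromosome Y in 61, and at least 50% of the words occurred at more than 1 place in 58. None was a tandem array by the same rule, and 20 overlapped a gene. On chromosome X itself, 126 stretches met the rule used for autosomes, and on chromosome Y 26 did. The part of the sex chromosomes in this combination was not tested further.

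Combinations of 56 and 45 regions were passed over. Another combination, with 55 regions, was a peak in all 4 WT hindbrains and both WT carcasses and in no WT heart or liver. *Tdg* null hindbrains lay over 96.4% of these regions in every litter and *Tdg* null carcasses over 89.1% and 92.7%. *Tdg* null hearts, whose WT counterparts had no peak there, lay over 70.9% and 32.7%, and the *Tdg* null liver of pair a over 49.1%. Of these regions 1 had multicopy words by the rule above and none was a tandem array. The last combination was a peak over some base of the region in all 10 WT libraries, with 43 regions. Of these, 24 were under all 4 *Tdg* null hindbrains and no other *Tdg* null library. *Tdg* null hindbrains lay over 76.7% to 95.3% of them, and *Tdg* null heart, carcass and liver libraries over 2.33% to 11.6%. The remaining 595 regions had other combinations, and 153 of them were under all 9 *Tdg* null libraries.

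**Figure D2:**
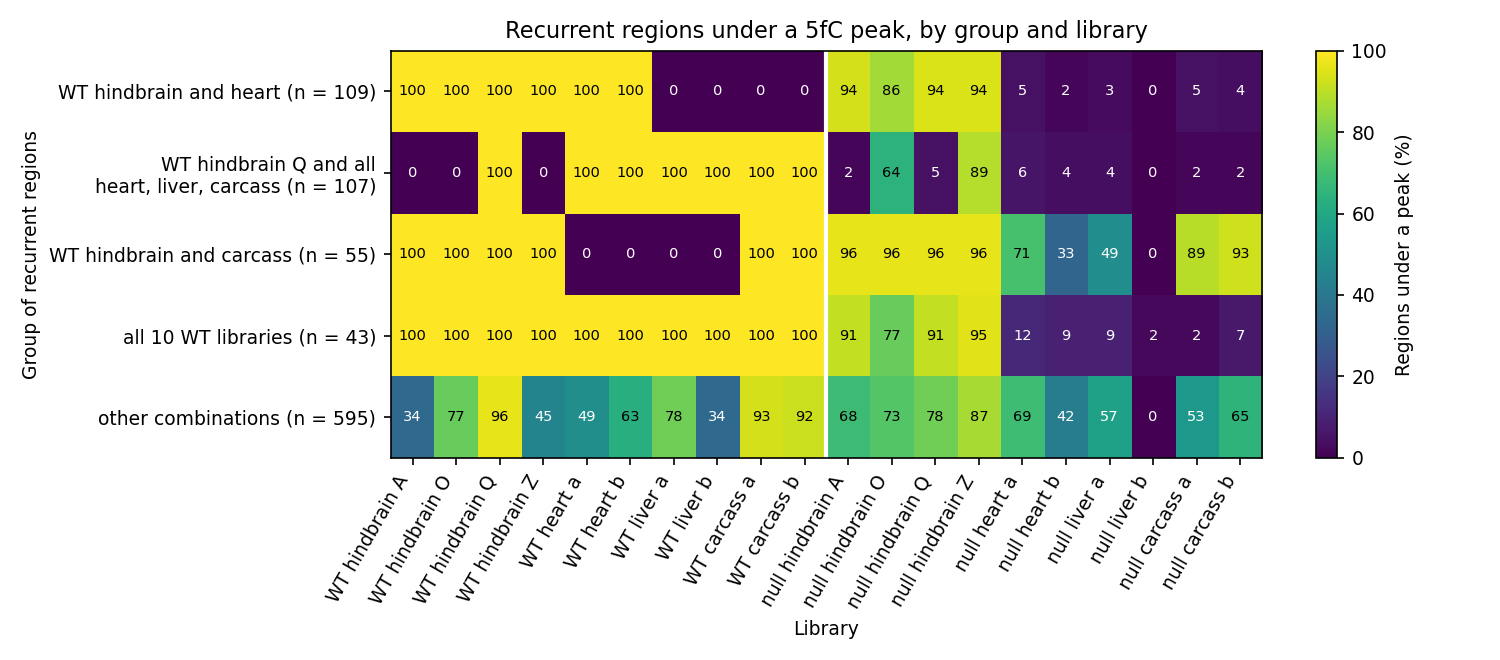
Each cell gives the percentage of a group of recurrent regions (rows, with the number of regions) under a peak of a library (columns, WT left and *Tdg* null right of the white line). The WT columns of the first 4 rows are 0 or 100 because WT peaks define the groups, and the *Tdg* null columns show high hindbrain values for hindbrain and heart regions, litters O and Z alone for the second row, and high hindbrain and carcass values for the third row.

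The share of stretches under all 9 *Tdg* null libraries was higher at each step from 1 to 5 WT libraries, with no steady order from 6 on. Median stretch length rose over the same steps, with 400, 600, 700, 800 and 900 bp. An overlap of 1 base counted, and the part of length in these shares was not tested. Whole WT stretches are counted here, so their numbers differ from those of the regions. A peak in all 9 *Tdg* null libraries was seen over 5.20% of the 51726 stretches reaching 1 WT library, 10.4% of those reaching 2, 17.99% of those reaching 3, 20.5% of those reaching 4 and 25.8% of the 1142 stretches reaching 5. It was seen over 19.1% of 554 stretches reaching 6, just inside the threshold, over 17.4% of those reaching 7, 29.5% of those reaching 8 and 13.9% of those reaching 9, and over 1 of 42 stretches (2.38%) reaching all 10. A peak in all 4 *Tdg* null hindbrains and no other *Tdg* null library was over 1.05% of the stretches reaching 5, 16.6% of those reaching 6, 1.98% of those reaching 7, 3.28% of those reaching 8, 13.9% of those reaching 9 and 24 of 42 (57.1%) reaching 10. The share without a *Tdg* null heart, carcass or liver peak was 24.6% at 1 WT library, 12.1% at 2, 10.8% at 3 and 17.9% at 4. It was 12.8% at 5, 38.4% at 6, 52.6% at 7, 29.5% at 8 and 61.1% at 9 WT libraries, and 34 of 42 (81.0%) at 10.

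**Figure D3:**
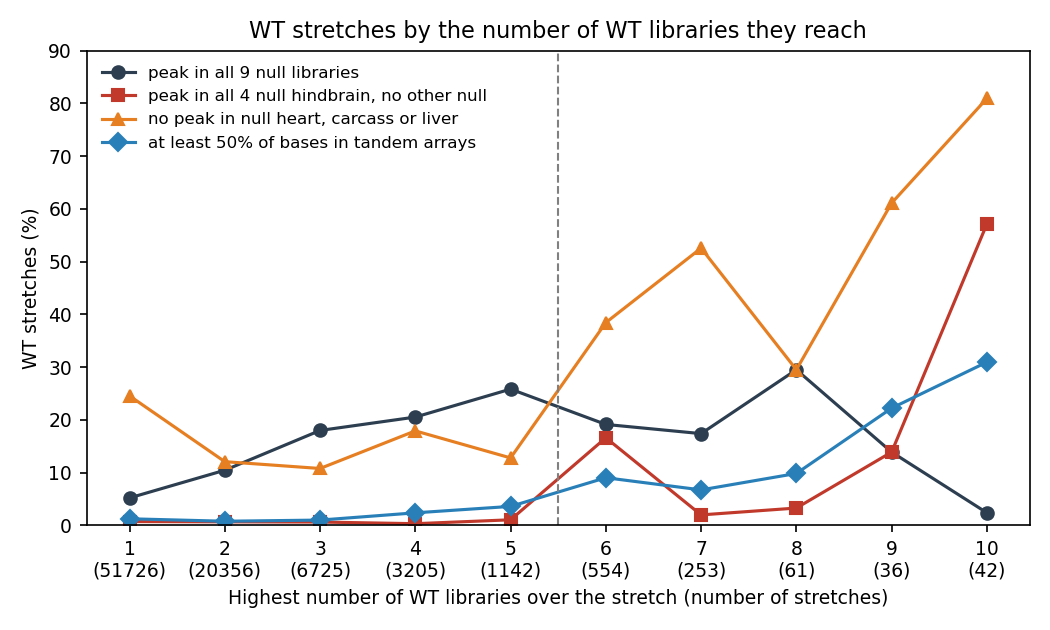
Lines give the percentage of WT stretches (vertical axis) with each property by the highest number of WT libraries over the stretch (horizontal axis, with the number of stretches), and the dashed line marks the threshold of 6. At 10 WT libraries, 24 of 42 stretches have a peak in all 4 *Tdg* null hindbrains alone, 13 are tandem arrays and 1 has a peak in all 9 *Tdg* null libraries.

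Sequence composition differed among the regions according to the *Tdg* null libraries over them. A base was counted as part of a tandem array where 40 of 50 neighbouring bases were equal to those 1 unit further on, for units of 2 to 100 bases. By this measure, chosen after the sequences were seen, at least 50% of the bases belonged to arrays in 94 regions (10.3%, against 1.28% of all WT stretches). The share was 16.99% and 17.2% when the regions were chosen without WT carcass of pair a or b, and 15.5% without WT hindbrain of litter Q. The unit was 2 to 6 bases in 29 of them, 7 to 60 bases in 55 and longer in 10. At least 50% of the 50-base words occurred at more than 1 place in 208 regions (22.9%, against 7.45%), and 44 regions met both rules. The multicopy share was 30.6% with words of 36 bases, 9.57% with words of 100 bases and 8.89% without regions sharing a word with chromosome X or Y, against 1.12% of the WT stretches without such a word. An array repeats its own words, so these measures overlap. No CpG at all was found in 48 regions (5.28%, against 1.22%), and 37 of the arrays held none. Within 10 kb of an assembly gap lay 26 regions (2.86%, against 0.338%).

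Regions under all 9 *Tdg* null libraries stood at the far end. Of these 167, none was an array, 1 had multicopy words and none lacked a CpG. Their median CpG density was 3 CpGs per 100 bp, against 1.75 over all WT stretches, and their median GC content was 51%, against 46.6%. WT stretches are measured whole, while regions are their parts under at least 6 WT libraries. At 6 WT libraries the medians were 2 CpGs per 100 bp and 47.9% GC over whole stretches, and 2.5 and 49.5% over regions. In contrast, the 126 regions under *Tdg* null hindbrain alone had a median of 1 CpG per 100 bp, and 44 of them (34.9%) were arrays. The 229 regions under 1 to 3 *Tdg* null hindbrains and no other *Tdg* null library also had a median of 1 CpG per 100 bp, and 139 (60.7%) had multicopy words. Among the 52 regions without any *Tdg* null peak, 25 (48.1%) had multicopy words, 15 were arrays and 10 held no CpG. The 335 regions with other combinations had a median of 2.8 CpGs per 100 bp, and 12 of them had multicopy words. Over all 909 regions the median was 2.4 CpGs per 100 bp and 49.3% GC.

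**Figure D4:**
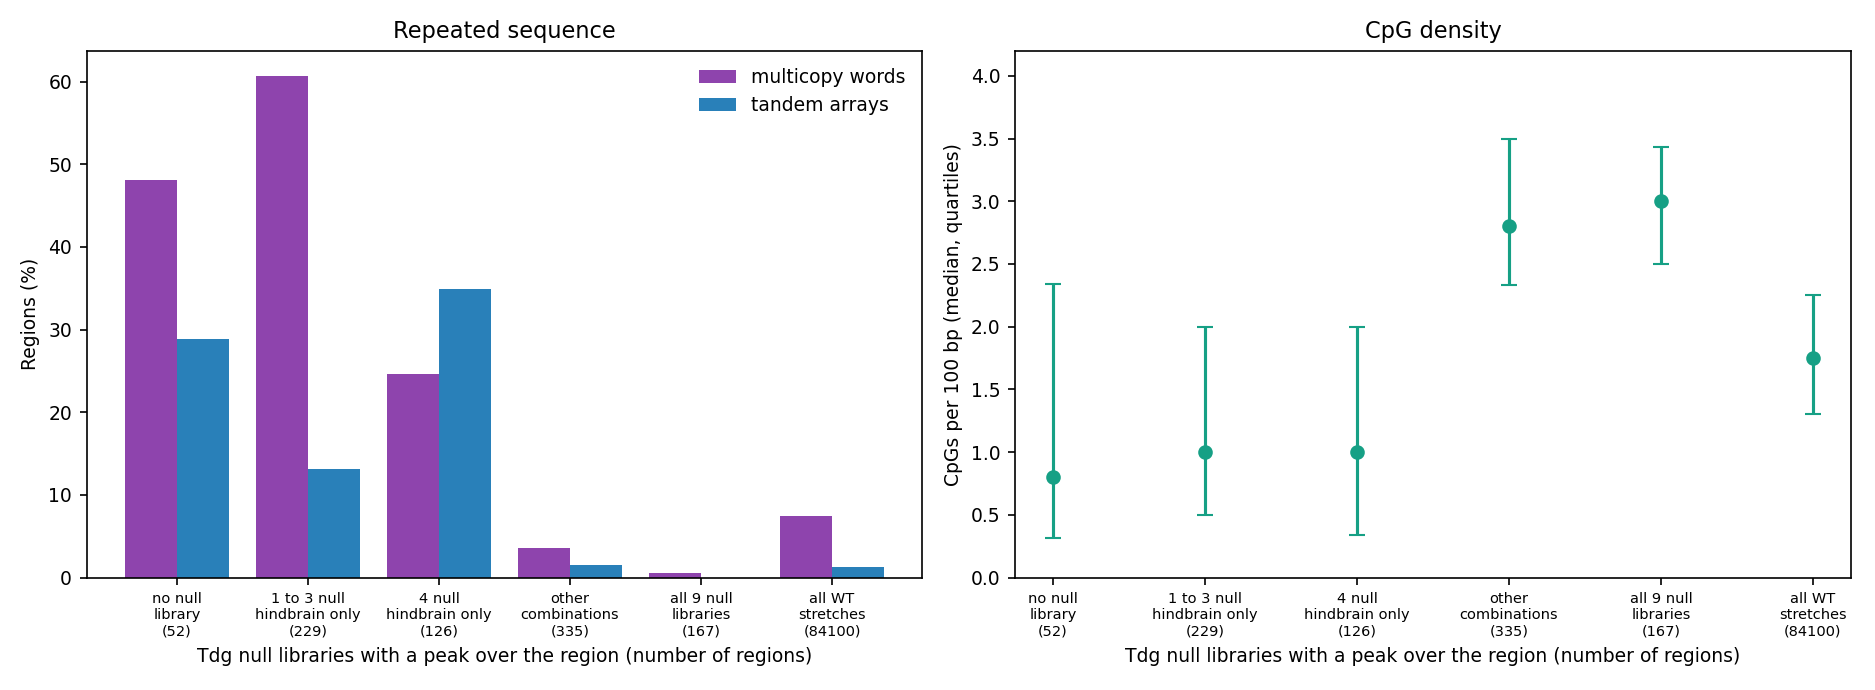
On the left, bars give the percentage of regions whose 50-base words mostly occur at more than 1 place (purple) or whose bases mostly lie in tandem arrays (blue), by the *Tdg* null libraries over the region. On the right, points and bars give the median and quartiles of CpGs per 100 bp, which are 3 for regions under all 9 *Tdg* null libraries and 1 or less for regions under hindbrain alone or no *Tdg* null library.

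CpG islands, the CpG-dense stretches that mark many promoters, were overlapped by 61 regions (6.71%, against 1.53% of all WT stretches). Islands were stretches of 200 bp or more whose GC share reached 50% and whose observed over expected CpG ratio exceeded 0.6. Under a stricter definition of 500 bp, 55% and 0.65, 6 regions were left (0.660%, against 0.526%), a share near the background. Of the 61 regions, 28 were multicopy or arrays and 7 lay within 1 kb of a transcription start. A gene was overlapped by 402 regions (44.2%, interval 41.0 to 47.5%, against 50%) and an exon by 93 (10.2%, against 10.8%), with 309 in introns and 507 between genes. The share in genes was below the background and that in exons near it. Without regions sharing a word with chromosome X or Y, the share in genes was no longer below. It was then 53.0%, against 52.4% of the WT stretches without such a word, and that in exons 13.7%, against 11.7%. Of regions under all 9 *Tdg* null libraries 59.3% overlapped a gene, compared with 25.3% of those under 1 to 3 *Tdg* null hindbrains alone.

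Among the 10 longest regions reaching all 10 WT libraries, several had peaks of nearly the same length in every WT tissue. The region chr8:14306601-14307500 lies in an intron of *Dlgap2*, a scaffold protein of the postsynaptic density. Its peak was 900 bp long in each of the 10 WT libraries and in each of the 4 *Tdg* null hindbrains, and was missing in the 5 other *Tdg* null libraries. The region chr11:53953401-53954400, 12206 bp from *P4ha2* (a prolyl hydroxylase subunit of collagen synthesis), had WT peaks of 900 to 1000 bp with a median of 1000, and 1000 bp in each *Tdg* null hindbrain. The region chr1:78570201-78571300, 35998 bp from *Mogat1* (a monoacylglycerol acyltransferase), had WT peaks of 1100 to 1300 bp with a median of 1100, and 1100 bp in each *Tdg* null hindbrain. Neither had a peak in *Tdg* null heart, carcass or liver. At these 3 regions the peak lengths of WT and *Tdg* null hindbrain overlapped.

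The chr6:3000301-3001100 region had WT peaks of 800 to 900 bp and *Tdg* null hindbrain peaks of 800, 700, 800 and 800 bp in litters A, O, Q and Z. At chr6:67640001-67641600, 29619 bp from the immunoglobulin segment *Igkv17-134*, WT peaks were 1200 to 2000 bp with a median of 1600, and *Tdg* null hindbrain peaks were 1000, 300, 1100 and 1200 bp. At chr1:85143901-85145100, in an intron of *C130026I21Rik*, WT peaks were 1000 to 1300 bp and *Tdg* null hindbrain peaks 700, 600, 1000 and 1100 bp. Its words occurred a median of 38 times in the genome. In both regions the shortest *Tdg* null peak was that of litter O, and no other *Tdg* null tissue had a peak.

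Another 3 regions reached all 10 WT libraries. At chr15:85483601-85484500, near *Mirlet7c-2*, WT peaks were 600 to 1400 bp with a median of 1100, and *Tdg* null hindbrain peaks were 1200, 700, 900 and 1500 bp. This region of 63% GC and 34 CpGs also had a peak of 1600 bp in *Tdg* null heart of pair a. At chr5:105789501-105790300, 16553 bp from *Gbp11* (a guanylate-binding protein), WT peaks were 600 to 1300 bp, *Tdg* null hindbrain peaks were 600, 300, 500 and 600 bp and *Tdg* null heart of pair a had 1100 bp. At chr11:18231601-18232400, near *Gm12020*, an array with a unit of 24 bases, WT peaks were 700 to 800 bp and *Tdg* null hindbrain peaks were 700, 0, 800 and 800 bp.

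**Figure D5:**
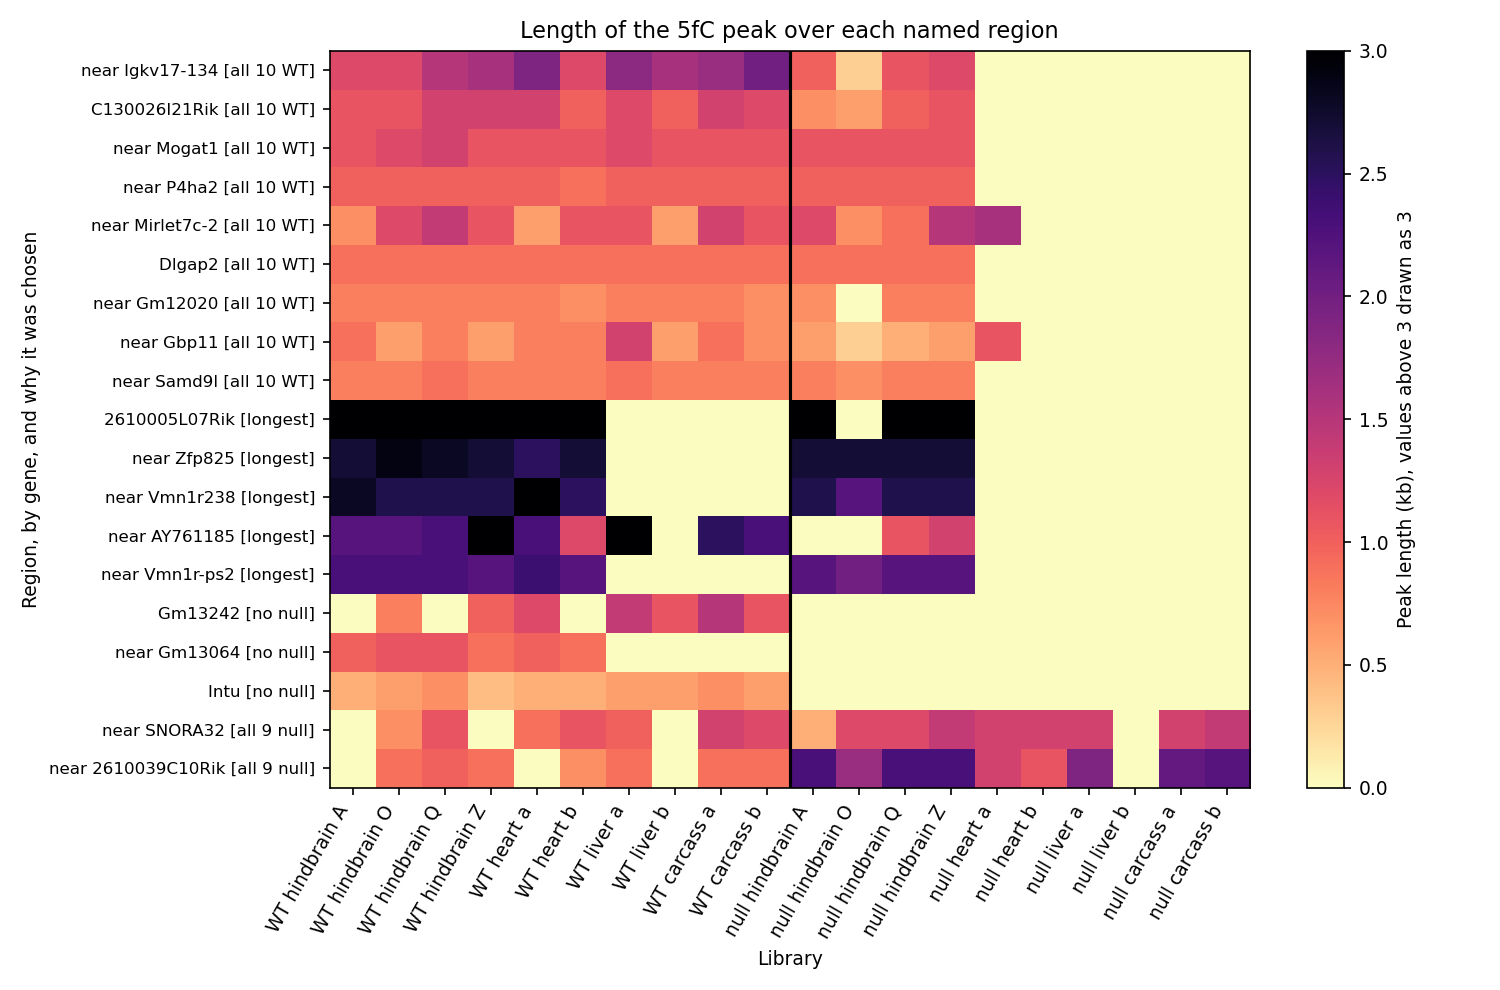
Colour gives the length of the peak over each named region (rows, by the gene they lie in or near, with the reason for naming) in each library (columns, WT left and *Tdg* null right of the line); lengths above 3 kb are drawn as 3 kb and the palest colour is no peak. The first 9 rows have a peak in at least 1 *Tdg* null hindbrain but, apart from *Tdg* null heart of pair a at *Mirlet7c-2* and *Gbp11*, none in other *Tdg* null tissues, and the last 2 rows have peaks in all 9 *Tdg* null libraries.

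The 5 longest regions were between 2200 and 34200 bp. The longest, chr8:19916901-19951100, overlapped *2610005L07Rik* and 3 other gene models. Its peaks were 71100, 71000, 40300 and 71200 bp in WT hindbrain of litters A, O, Q and Z and 89100 and 34400 bp in WT heart, and 33900, 0, 28300 and 34100 bp in *Tdg* null hindbrain. No liver or carcass of either genotype had a peak there, and 81.6% of its words occurred at more than 1 place. The region chr13:74665801-74668300, near *Zfp825* (a zinc finger gene), was an array with a unit of 5 bases and 1 CpG in 2500 bp. Its peaks were 2700, 2900, 2800 and 2700 bp in WT hindbrain, 2500 and 2700 bp in WT heart and 2700 bp in each *Tdg* null hindbrain. The region chr8:22085401-22087700 lies 974 bp from *AY761185*, and all of its words occurred at more than 1 place. It had WT peaks in 9 libraries, none in WT liver of pair b, and *Tdg* null peaks of 1100 and 1300 bp in hindbrain of litters Q and Z. The region chr4:3016601-3018800 and 1 on chromosome 18 were both under WT hindbrain, WT heart and *Tdg* null hindbrain alone, and began 16601 and 4401 bp from a gap.

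A peak in WT but in none of the 9 *Tdg* null libraries was seen at 52 regions (5.72%, against 16.0% of all WT stretches). The 3 longest were chr4:145221301-145222300 in an intron of *Gm13242*, chr4:149184201-149185000 near *Gm13064*, and chr3:40449001-40449600 in *Intu*. The first had peaks in 7 WT libraries of up to 1500 bp, and 80.8% of its words occurred at more than 1 place. The second was an array over its whole length with a unit of 34 bases, and its WT peaks were 1000, 1100, 1100 and 900 bp in hindbrain and 1000 and 900 bp in heart. The *Intu* region, with a unit of 29 bases, had WT peaks of 400 to 700 bp in all 10 libraries with a median of 600 and none in *Tdg* null embryos. An assembly gap lies inside the *Intu* region.

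Both of the long regions under all 9 *Tdg* null libraries whose sequence is given above were compared by peak length. At chr16:90710101-90711000, near *2610039C10Rik*, *Tdg* null hindbrain peaks were 2300, 1700, 2300 and 2300 bp and did not overlap the WT hindbrain values of 0, 900, 1000 and 900 bp. At chr3:128222901-128223900, near *SNORA32*, the ranges overlapped, with 500, 1200, 1200 and 1400 bp in *Tdg* null and 0, 700, 1100 and 0 bp in WT hindbrain.

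By number of regions, *Gm20388* led the genes with 6, but this gene model on chromosome 8 spans other genes from 122434741 to 126869622. *Bahcc1* (a chromatin-associated protein with a BAH domain), *Itga9* (an integrin subunit), *St6galnac3* (a sialyltransferase) and *Zfhx3* (a homeobox transcription factor) had 3 each. Within 1 kb of *Gm20388*, *St6galnac3*, *Zfhx3*, *Itga9* and *Bahcc1* lay 277, 48, 27, 25 and 4 WT stretches, in that order. None of the regions in these 5 genes was an array. Of the 3 in *Bahcc1*, chr11:120104301-120105000 was under all 9 *Tdg* null libraries, with peaks of 3100 to 3400 bp, and under WT peaks of 700 to 1500 bp in hindbrain. Of the 3 in *Zfhx3*, chr8:111346501-111347300 was under all 10 WT and 6 *Tdg* null libraries. The 3 in *Itga9* were under 6, 7 and 7 *Tdg* null libraries, and those in *St6galnac3* under 4, 9 and 8.

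Lists of imprinted, Hox, cardiac, neural, hepatocyte, erythroid, housekeeping and DNA methylation or repair genes were checked for a region within 1 kb. Imprinted genes, whose expression depends on parental origin, had one at 3 of 43 genes (6.98%), against 1.24% of 34653 autosomal genes and 1.72% of the 21418 that code for proteins. They also had a WT stretch of any kind there more often, at 27 of 43 genes against 12302 of the 34653. These were *Kcnq1* (a potassium channel), *Ddc* (the decarboxylase that makes dopamine and serotonin) and *Copg2* (a coat protein of transport vesicles). The *Kcnq1* region, chr7:150574901-150575500, and the *Ddc* region, chr11:11784901-11785200, were under all 9 *Tdg* null libraries. The *Copg2* region, chr6:30754601-30755100, was under *Tdg* null hindbrain of litters A, Q and Z alone, with 600, 600 and 500 bp. None of the 38 Hox, 25 neural, 20 cardiac, 16 hepatocyte, 13 erythroid, 14 housekeeping and 17 methylation or repair genes had a region within 1 kb, while 1 to 12 genes of each list had another WT stretch there.

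Both the number of regions and their overlap with *Tdg* null peaks changed when single WT libraries were left out. An omission at an unchanged threshold can only lower the number of bins that meet it. With the threshold kept at 6 libraries, 296 regions were left without WT hindbrain of litter Q, 506 without that of litter O, 518 and 523 without either WT carcass and 594 without WT heart of pair b. The share without a *Tdg* null heart, carcass or liver peak was between 34.1% and 62.0% over these and the other single omissions. It was 36.5% without WT hindbrain of litter Q.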

How the data were processed

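DNA from E11.5 mouse tissues was enriched for 5fC with an aldehyde-specific biotin probe and sequenced. Per the methods, the authors trimmed reads with Trim Galore, mapped them to NCBIM37 with Bowtie2 and called peaks in each library in SeqMonk with MACS, set to fragments of 200 bp and a p-value below 1e-05. Use of an input library or removal of duplicate reads is not given in the sources used here. From the deposited files peak positions were used, on a grid of 100 bp. Reads were not analysed here, so no depth or enrichment per region was derived, and no test between genotypes was made.

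From these positions, recurrent regions were built with numpy 2.4.6 and pandas 2.3.3 under Python 3.11.15, from the 10 WT libraries, after grouping samples by tissue, genotype and litter. Regions and gene lists were chosen with earlier results of these data known. An overlap of 1 base counted as shared, and adjoining bins of a stretch needed 6 WT libraries each. Genome copies of every 50-base word were counted on both strands with numba 0.67.0, gene positions came from GENCODE vM1 on the same build, and intervals are exact Clopper-Pearson at 95% with scipy 1.17.1. The scripts were tested on simulated peaks. Named regions were the 10 longest reaching all 10 WT libraries, the 5 longest, the 3 longest under none and under all 9 *Tdg* null libraries, the 5 genes with most regions and regions within 1 kb of a listed gene. Of the named regions 2 are not reported here. Of the listed gene symbols 12 were not matched to an autosomal gene. Alternatives were other recurrence thresholds, lengths, joining, peak lengths, overlaps, word lengths and island definitions, and leaving out each library. Further ones were added after seeing the data.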

Additional observations from a re-analysis of the deposited data

Results flagged for a closer look

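Chromosome X was outside the autosomal comparison, and 126 stretches on it met the rule used for the recurrent regions. WT hindbrain of litter Q had a peak over 124 of them and the other WT hindbrains over 15 to 21, while WT heart, liver and carcass libraries had one over 97 to 123. Among *Tdg* null libraries, hindbrain of litters O and Z had a peak over 84 and 108, hindbrain of A and Q over 13 and 15, and the 5 libraries of other tissues over 0 to 2. No sex of the embryos was used, and the part of chromosome X in these differences was not tested.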

How the results depend on the processing

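Of 335 values recomputed under alternatives, which are counts, medians and shares without a sign, 78 of the main measures and 45 of the others moved by more than their own spread or, for numbers of regions and bases, by over 1.5 times. A threshold of 5 WT libraries gave 1937 regions, with a median of 7 *Tdg* null libraries each, 27.9% without a *Tdg* null heart, carcass or liver peak, 7.18% under the 4 *Tdg* null hindbrains alone, 22.97% under all 9 *Tdg* null libraries, and 54.8% and 47.0% of bases under *Tdg* null carcass and liver. A threshold of 7 gave 387 regions, 52.7% of them without such a peak and 9.30% under the 4 *Tdg* null hindbrains alone. A minimum length of 400 bp put 95.8% of regions under a *Tdg* null peak. With WT peaks of 600 bp or more there were 332 regions, 98.2% under a *Tdg* null peak and 21.99% under the 4 hindbrains alone, with 32.3% and 31.9% of bases under carcass and liver. With *Tdg* null peaks of 600 bp or more these were 72.6% of regions and 62.0% of bases in hindbrain. Leaving out regions with a word on chromosome X or Y, an alternative added after seeing the data, gave 97.1% under a *Tdg* null peak, a median of 8 *Tdg* null libraries, 23.3% without a *Tdg* null heart, carcass or liver peak, 10.8% under the 4 hindbrains alone, 26.5% under all 9, and 84.3%, 54.4%, 59.2% and 55.7% of bases under hindbrain, heart, carcass and liver. With the same stretches left out of the background, heart turned from below to above it, and liver from equal to above it.

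Leaving out 1 library at a time gave 296 to 815 regions, 87.9% to 96.4% under a *Tdg* null peak, a median of 4 to 7 *Tdg* null libraries and 34.1% to 62.0% without a *Tdg* null heart, carcass or liver peak. It put 5.55% to 23.9% under *Tdg* null hindbrain alone and 13.3% to 28.3% under all *Tdg* null libraries kept. The bases under *Tdg* null peaks were then 60.7% to 76.7% in hindbrain, 22.02% to 47.3% in heart, 21.5% to 53.4% in carcass and 22.2% to 48.6% in liver. Tandem arrays were then 7.65% to 17.2% of the regions and multicopy regions up to 31.6%, the latter without WT hindbrain of litter O. The lowest share under a *Tdg* null peak was without *Tdg* null hindbrain of litter Z. The cause of these changes was not tested. The share of soft-masked bases was not run, since the reference sequence used is not soft-masked, and *Tdg* null liver could not be computed without pair a. No paired analysis was possible because no result comes from a test over replicates, and values are given by litter and pair instead. Peak positions carry no depth, WT libraries differed widely in peak number, and heart, liver and carcass rest on 2 embryos per genotype, so the values describe these libraries.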
